A study of Mus musculus with 12 samples.

Results

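Mouse islets grafted into inguinal fat were compared at day 120 and day 60 after transplantation, using the 8 graft libraries among the 12 libraries of the series. The members were chosen by title: 4 libraries labelled day 120 and 4 labelled day 60, each numbered 1 to 4. All are labelled as C57BL/6 islet tissue placed in the subcutaneous white fat of the groin. The sex, age and state of the recipients, the number of islets per graft, whether grafts were pooled, and what the replicate number stands for are not given in the sources used here. The remaining 4 libraries, from islets before grafting, served only as a side value where named. Expression was measured by RNA sequencing and is given as FPKM, fragments per kilobase of transcript, scaled to the mapped total, for 23234 gene rows. Of these, 13105 reached at least 1 FPKM in at least 4 of the 8 grafts and were tested.

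Pancreatic islets are clusters of hormone cells: beta cells make insulin and amylin, alpha cells glucagon, delta cells somatostatin and PP cells pancreatic polypeptide. Beta cells hold their identity through transcription factors such as Pdx1, Nkx6-1 and Mafa, sense glucose through a transporter and potassium channels, and store insulin in zinc-rich granules. A graft taken from fat brings host tissue with it, among it adipocytes, fibroblasts with their collagen matrix, macrophages, vessels and blood, and every level in such a bulk sample is a share of the whole. Fewer cells of a type and less RNA per cell cannot be told apart in these values.

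Endocrine markers were high in all 8 grafts: Iapp, which encodes amylin, ran from 29125 to 48065 FPKM and Chga, a granule protein, from 1292 to 6600 FPKM. Host markers were present too, with Adipoq, the adipocyte hormone adiponectin, between 23.7 and 981 FPKM. Markers of the exocrine pancreas and of skin were at or near 0: Amy2a5, Krt5 and Krt14 were listed at 0 in all 8 grafts, and Ctrb1 in 6 of them. The day 60 library of number 1 stood apart. Its correlation with the other 7 grafts over all genes tested was 0.738 to 0.871, while those 7 correlated with each other at 0.905 to 0.968. The median standard deviation of a gene on the log2(FPKM + 1) scale was 0.393 at day 60 (n = 4) and 0.213 at day 120 (n = 4). Without the number 1 libraries it was 0.256 and 0.184 (n = 3 each). Deposited FPKM summed to between 396769 and 579234 per graft, read counts were not used here, and the depth behind each value is unknown.

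**Figure D1:**
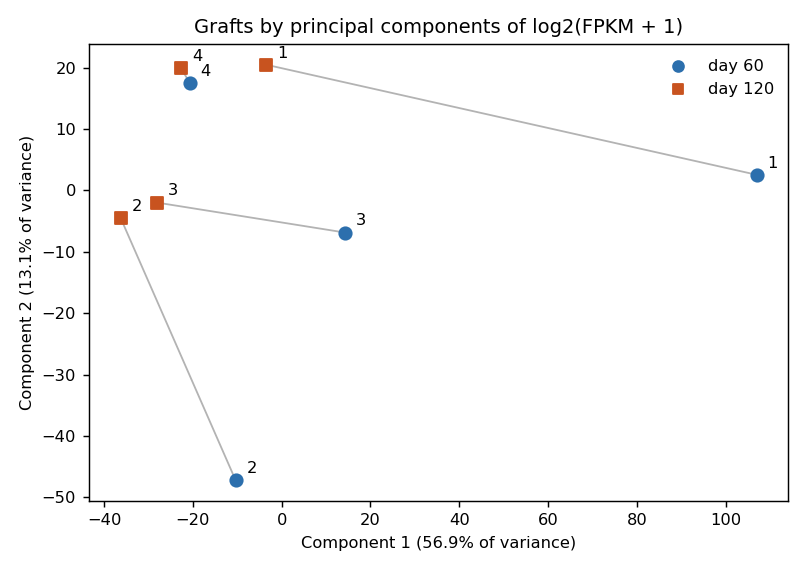
The 8 grafts on the first 2 principal components of log2(FPKM + 1) over the genes tested, circles for day 60, squares for day 120, with a line joining libraries of the same number. Day 60 number 1 lies far to the right on component 1, which holds 56.9% of the variance, while the pair of number 4 libraries lies close together.

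The distance between the days depended on the number. The share of genes that differed by more than 1 log2 unit between day 120 and day 60 of the same number was 26.3% for number 1, 4.35% for number 2, 5.73% for number 3 and 0.870% for number 4. Over all genes, day accounted for 21.3% of the variance among the 8 grafts and replicate number for 50.6%, where their degrees of freedom alone would give 14.3% and 42.9%. Across genes, the differences within number 1 correlated with those within number 3 at 0.567 and with those within number 2 at 0.408, but with those within number 4 at 0.0587. Genes are not independent replicates, and these correlations are descriptions.

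Only 3 rows passed an adjusted p of 0.05 between the days, 0.0229% of the 13105 tested (limma, Benjamini-Hochberg over all genes). With the replicate number as a block the same 3 rows passed. They were Mir344g, Gm9781 and Mir1186, none of which the naming rule admits, so they are named after their values were seen. Mir344g reached 1 FPKM only in day 120 grafts and Gm9781 only in day 60 grafts. Both met the filter through the group where they are high, so their lack of overlap was fixed by admission. Leaving out both number 1 libraries gave 6 rows, with the 3 among them and the others all small RNA rows; leaving out both number 4 libraries, the most alike pair, gave 2 rows without the block and 45 with it, 5 higher and 40 lower. The next smallest adjusted p was 0.592, shared by many genes. At an unadjusted p under 0.05, 514 genes were higher at day 120, 3.92% of those tested, and 401 were lower, 3.06%. The fit had a median half-width of 0.514 log2 units for the 95% interval of a gene's difference, which is not adjusted for the number of genes. Differences smaller than that were mostly not detectable in 4 against 4 grafts. Much larger ones also missed the adjusted threshold, such as -1.88 for Cck and 1.58 for Fam151a.

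**Figure D2:**
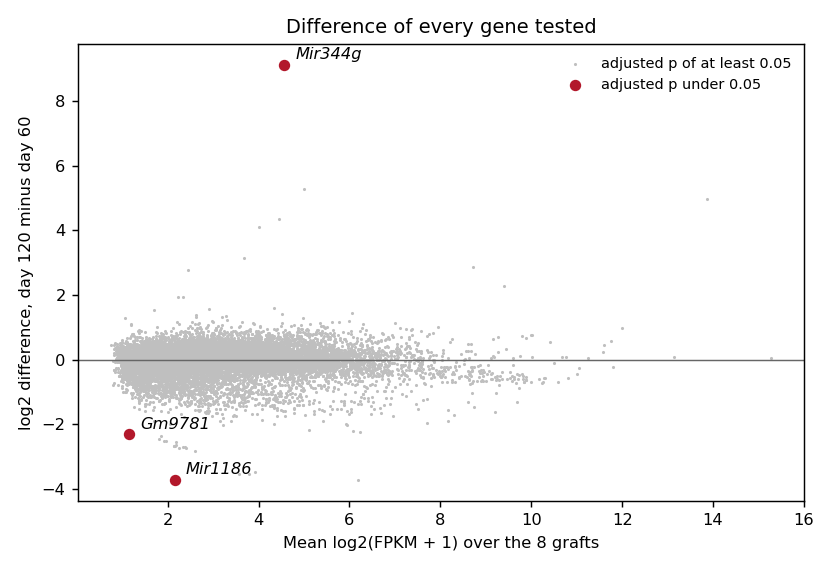
Each point is a gene row, with its mean log2(FPKM + 1) over the 8 grafts on the x axis and its log2 difference, day 120 minus day 60, on the y axis. The 3 rows past an adjusted p of 0.05 are drawn in red and named: Mir344g lies at 9.13, Gm9781 at -2.30 and Mir1186 at -3.72.

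The row with the largest called difference was a microRNA precursor. The Mir344g hairpin, 71 bases long at chr7:61982289-61982359 on the minus strand in RefSeq (GRCm38.p6), is shown because the size of the row bears on its value; capitals in the hairpin mark the mature arms, and capitals in the arms mark the seed, bases 2 to 8.
Mir344g hairpin: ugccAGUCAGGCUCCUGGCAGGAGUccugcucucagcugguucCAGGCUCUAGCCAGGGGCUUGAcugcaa
mmu-miR-344g-5p: aGUCAGGCuccuggcaggagu
mmu-miR-344g-3p: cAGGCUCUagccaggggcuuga
The Mir344g row was listed at 0 in all 4 day 60 grafts and all 4 islet libraries, and at 576, 500.3, 609 and 561 FPKM in day 120 numbers 1 to 4 (log2 difference 9.13, limma adjusted p = 1.28e-09). The groups do not overlap, which was fixed once the row met the filter through its day 120 values alone. For so short a row, however, a single fragment is worth a large FPKM. The ratios between the 4 values were set beside those of other small RNA rows. Relative to day 120 number 2, the step of 1.151, 1.217 and 1.122 in numbers 1, 3 and 4 was shared, up to a ratio of whole numbers no larger than 6 and within 0.1%, by 18 of 35, 32 of 49 and 31 of 49 other small RNA rows. Such ratios arise from unequal as well as equal fragment numbers. Whether the 4 grafts held equal numbers was not tested, and the number of fragments itself was not derived.

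Gm9781 stood at 4.47, 4.53, 2.47 and 4.73 FPKM at day 60 and at 0.00200, 0.00300, 0.00900 and 0.00300 FPKM at day 120 (log2 difference -2.30, limma adjusted p = 0.00481). The row met the filter through its day 60 values alone, which fixed its lack of overlap. It is a near copy of Eif3j, which encodes a subunit of a translation initiation factor, and fragments could be split between the copies, so the value is uncertain. Eif3j itself was at 18.9, 13.0, 19.8 and 19.3 FPKM at day 60 and at 21.0, 21.2, 17.0 and 21.2 FPKM at day 120, and did not pass the test. Mir1186, a microRNA row, stood at 7.31, 17.3, 20.4 and 20.6 FPKM at day 60 and was listed at 0, 0, 1.34 and 0 FPKM at day 120 (log2 difference -3.72, limma adjusted p = 0.0197). When microRNA and other small RNA rows were left out, a choice made after seeing the data, Gm9781 was the 1 row called.

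No protein-coding gene of the rule passed, and the strongest candidates are given by their values. The groups did not overlap for 387 genes higher at day 120, 2.95% of those tested, and for 179 lower, 1.37%. Among the 10 candidates on the higher side was Pcp4, a calmodulin-binding peptide, at 5.65, 5.33, 5.87 and 9.48 FPKM at day 60 and 18.2, 13.6, 13.3 and 11.3 FPKM at day 120. Its log2 difference was 1.01, with a 95% interval of 0.53 to 1.48. Fam151a stood at 6.14, 10.1, 8.55 and 24.0 FPKM at day 60 and 44.2, 25.8, 29.2 and 40.9 FPKM at day 120, a log2 difference of 1.58 (0.76 to 2.41). Its limma adjusted p was 0.592 in the main fit and 0.361 in the blocked fit of all 8 grafts. Among the blocked fits that leave out a number, it passed only without number 4, its least different pair (limma adjusted p = 0.0476). All 4 day 120 values lay above all 4 day 60 values in both genes. The candidates on both sides were picked by p and by the same sign in all 4 numbers of these data. Their lack of overlap and their intervals partly follow from that choice. Pigr, the receptor that carries polymeric antibodies across epithelia, was at 1.41 to 5.16 FPKM at day 60 and 6.74 to 11.5 FPKM at day 120. Robo2, a receptor for Slit guidance proteins, was at 2.08 to 7.88 against 8.91 to 13.3 FPKM, and Lgi1, a secreted protein of neurons, at 2.03 to 6.02 against 8.97 to 9.60 FPKM. Arl9, Ror1, Fhod3, Barhl1 and Ncoa6 made up the rest of that side, with log2 differences from 0.55 for Ncoa6, a nuclear receptor coactivator, to 1.31 for Arl9.

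On the lower side, Cks2, a small subunit of cyclin-dependent kinases, had the smallest unadjusted p. It stood at 6.07, 5.52, 4.05 and 3.00 FPKM at day 60 and 1.53, 1.66, 1.82 and 1.30 FPKM at day 120, a log2 difference of -1.10 (95% interval -1.58 to -0.63). Stmn1, which destabilises microtubules, was at 15.2, 12.9, 12.2 and 12.3 FPKM at day 60 and 6.56, 5.22, 9.24 and 8.31 FPKM at day 120. Neither gene overlapped between the days, and the day 60 values of number 1 were not far from the others, unlike those of most immune genes. Clec7a, the beta-glucan receptor of myeloid cells, was at 9.64 to 31.6 against 5.20 to 5.72 FPKM. Gbp4, an interferon-induced GTPase, Blnk, an adaptor of B cell and myeloid signalling, and Cisd3, a mitochondrial iron-sulfur protein, also had no overlap. For Blnk the limma adjusted p was 0.592 in the main fit and 0.361 in the blocked fit of all 8 grafts. Among the blocked fits that leave out a number, it passed only without number 4, its least different pair (log2 difference -1.71, limma adjusted p = 0.0416). Of the lysosomal genes on this side, Tcirg1, a proton pump subunit, was at 10.5 to 19.3 against 4.93 to 10.5 FPKM. Tpcn2, a lysosomal cation channel, was at 3.53 to 5.69 against 1.45 to 3.17 FPKM. For Atp6v0d2, another pump subunit, day 60 number 2 at 2.98 FPKM lay below day 120 number 4 at 3.25 FPKM.

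Gene lists describe the days by kind of gene, without a test, and were chosen with earlier results of these data known. None of the members of the 46 lists passed the adjusted threshold, so each list is described by its median and by how many members lay on the same side in all 4 numbers. That was so for 17.0% of all genes tested on the higher side and 8.87% on the lower side. In numbers 2, 3 and 4 alone the shares were 20.1% and 11.0%. The median log2 difference of all genes tested was 0.0335.

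**Figure D3:**
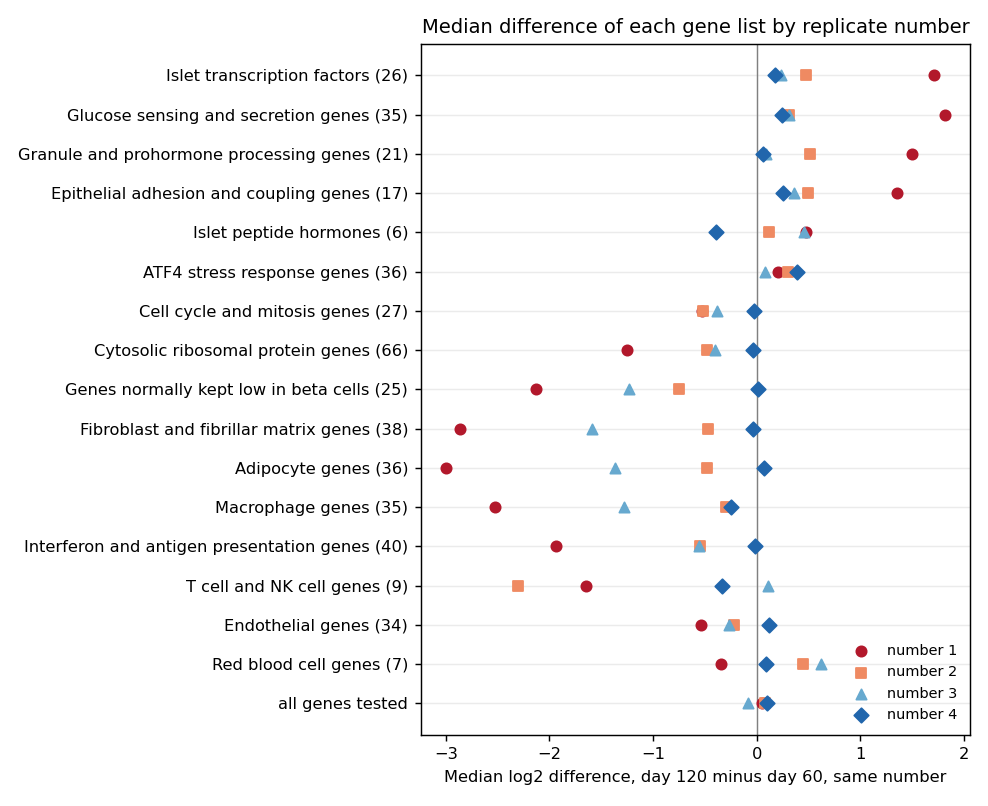
Median log2 difference, day 120 minus day 60 of the same number, for the tested members of each list (their number in brackets), with 1 symbol per replicate number. Islet transcription factors lie right of 0 in every number, at 1.71, 0.47, 0.23 and 0.18, while fibroblast and matrix genes run from -2.86 in number 1 to -0.0392 in number 4.

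Most genes of beta cell identity and function had higher levels at day 120, without any passing the test. Of 26 islet transcription factors tested, 16 were higher in all 4 numbers and none was lower in all 4, 6 had an unadjusted p under 0.05, and the median log2 difference was 0.59. Number 1 contributed most: the list's median was 1.71 in number 1, 0.47 in number 2, 0.23 in number 3 and 0.18 in number 4, and 0.22 in the fit without number 1. Pdx1, a master regulator of the pancreas and of insulin transcription, stood at 13.7, 22.3, 53.6 and 53.9 FPKM at day 60 and 75.7, 60.0, 54.9 and 65.2 FPKM at day 120. The day 120 grafts were alike and all above day 60, whose numbers 1 and 2 were low. Nkx6-1, which keeps beta cells from turning to other islet fates, was at 13.7, 25.3, 42.5 and 65.1 FPKM against 91.4, 57.8, 68.4 and 77.2 FPKM. Its log2 difference was 1.18 (95% interval 0.24 to 2.12), and 0.69 over numbers 2 to 4. Mafa, an activator of insulin transcription in mature beta cells, was at 31.1, 24.0, 48.9 and 75.1 FPKM and then 215, 79.0, 63.8 and 76.8 FPKM, so that number 4 hardly differed. Glis3, needed for beta cell formation, was at 1.59 to 4.57 against 4.69 to 8.39 FPKM, and Mnx1, another homeobox factor of beta cells, at 3.12 to 8.43 against 7.90 to 10.2 FPKM.

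Genes of glucose sensing and secretion ran the same way: 21 of 35 were higher in all 4 numbers, 1 was lower in all 4, and the median was 0.66, or 0.26 without number 1. Slc2a2, the glucose transporter of mouse beta cells, was at 30.0, 105, 53.8 and 73.9 FPKM at day 60 and 136, 109, 92.8 and 116 FPKM at day 120. Glp1r, the receptor for the incretin GLP-1, was at 17.8, 44.5, 52.3 and 37.4 FPKM and then 110.1, 83.2, 65.6 and 70.5 FPKM. Glp1r did not overlap between the days (log2 difference 1.17, 95% interval 0.43 to 1.91), nor did Trpm5, a cation channel, at 3.58 to 8.43 against 8.83 to 17.6 FPKM. Ucn3, a peptide of mature beta cells, was at 76.7, 84.9, 147 and 205 FPKM at day 60 and 286, 157, 206 and 268 FPKM at day 120. Among the granule and prohormone genes 10 of 21 were higher and 2 lower in all 4 numbers, with a median of 0.55, or 0.22 without number 1. Slc30a8, the zinc transporter of insulin granules, was at 85.0 to 247 against 259 to 363 FPKM without overlap, and Pcsk1n, a prohormone convertase inhibitor, at 103 to 397 against 278 to 395 FPKM. Chga was at 1292, 2303, 3903 and 6227 FPKM at day 60 and 5466, 4806, 6250 and 6600 FPKM at day 120.

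Contacts between epithelial cells formed a further such list, with 11 of 17 genes higher in all 4 numbers, none lower in all 4, and a median of 0.63, or 0.38 without number 1. Cdh1, E-cadherin, was at 13.5, 28.1, 45.0 and 50.9 FPKM at day 60 and 66.1, 58.1, 58.7 and 60.6 FPKM at day 120. Cdh2, N-cadherin, was at 7.55, 16.7, 19.4 and 28.7 FPKM and then 31.6, 29.4, 30.7 and 37.5 FPKM. In both genes the day 120 grafts lay close together and above every day 60 graft. The same held for Ncam1, a neural adhesion molecule of endocrine cells, at 2.60 to 14.3 against 14.5 to 17.8 FPKM, and for Tjp1, a tight junction scaffold, at 11.2 to 16.4 against 17.2 to 22.9 FPKM. The tight junction genes Cldn7 and Cldn4, which stand in the duct list, had log2 differences of 0.69 and 0.89. That list had 4 of 12 members higher and 2 lower in all 4 numbers, with a median of 0.54, or 0.23 without number 1, while its defining marker Krt19 was at most 0.720 FPKM in any graft.

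The hormones other than insulin did not share this pattern. Iapp was at 29125, 48065, 46898 and 36263 FPKM at day 60 and 40697, 45612, 41211 and 34717 FPKM at day 120, a log2 difference of 0.0394 (95% interval -0.81 to 0.89). Gcg, glucagon, was at 4072, 8574, 7957 and 21253 FPKM and then 5578, 9839, 8634 and 15981 FPKM. Number 4 was highest and number 1 lowest on both days. Sst, somatostatin, was at 1232 to 9059 against 2217 to 5549 FPKM and Ppy, pancreatic polypeptide, at 2654 to 7536 against 2226 to 5816 FPKM, each again highest in number 4 on both days. The 95% intervals of their log2 differences were -1.14 to 1.32 for Gcg, -1.10 to 1.56 for Sst and -1.21 to 0.76 for Ppy. Over the 17 other alpha, delta and PP cell genes the median was -0.18, or -0.12 without number 1. Ins1 was listed at 29232, 36319, 47890 and 0 FPKM at day 60 and at 83330, 70484, 92935 and 89357 FPKM at day 120, and Ins2 at 0 in all 8 grafts. A 0 for insulin in islet tissue can be a failed estimate, so neither gene is compared.

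Cck and Gast, peptide hormone genes that have been linked to beta cells losing their mature state, were lower at day 120 in every number. Cck was at 11.2, 15.9, 39.8 and 9.01 FPKM at day 60 and 5.24, 4.05, 4.72 and 1.51 FPKM at day 120, without overlap (log2 difference -1.88, 95% interval -2.91 to -0.86). Its limma adjusted p was 0.592 in the main fit and 0.361 in the blocked fit of all 8 grafts. Among the blocked fits that leave out a number, Cck passed only without number 1, its least different pair (log2 difference -2.19, limma adjusted p = 0.0144). Gast, gastrin, was at 6.30, 15.6, 23.1 and 7.45 FPKM and then 0.372, 5.83, 4.73 and 4.72 FPKM. It had the same 2 adjusted p-values as Cck in the fits of all 8 grafts. Among the blocked fits that leave out a number, it passed only without number 4, its least different pair (log2 difference -1.92, limma adjusted p = 0.0246). Csn3, kappa-casein, which stands in the skin and mammary list and not in theirs, was at 0.636, 2.86, 3.38 and 1.82 FPKM and then 0.201, 1.11, 0.497 and 0.262 FPKM. Slc16a1, a lactate transporter in the list of Cck and Gast, was at 8.25, 1.32, 2.57 and 0.459 FPKM and then 1.13, 0.289, 0.656 and 0.432 FPKM. Aldh1a3 and Serpina7 were not on 1 side in all 4 numbers: Aldh1a3, an enzyme of retinoic acid synthesis, was at 21.1, 29.0, 61.6 and 44.8 FPKM and then 33.0, 53.6, 38.7 and 36.6 FPKM, and Serpina7, thyroxine-binding globulin, at 17.7 to 51.1 against 24.3 to 49.9 FPKM. Over the whole list 7 of 15 were lower and 1 higher in all 4 numbers, with a median of -0.58, or -0.33 without number 1. By number the median was -0.93, -0.34, -0.69 and -0.11. How far cells other than beta cells contribute to this list was not tested.

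The 25 genes that beta cells normally keep low all had a negative difference, and 12 were lower in all 4 numbers, with a median of -1.06, or -0.68 without number 1. Maf, a transcription factor of other cell types, was at 25.6, 5.84, 9.07 and 6.58 FPKM at day 60 and 4.34, 3.46, 2.97 and 5.58 FPKM at day 120. Parp3, a DNA repair enzyme, was at 4.71 to 30.3 against 3.15 to 5.05 FPKM, and Ldha, the lactate dehydrogenase subunit, at 18.5 to 255 against 13.0 to 32.9 FPKM. Fibroblasts, fat and macrophages express many of these genes, and the summed levels of those cell types' genes moved with them, as given further on. The part of other cells in these values was not tested.

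Cell division genes lay mostly lower at day 120. Of 39 genes 27 were tested, 12 of them were lower in all 4 numbers and 1 higher, 8 had an unadjusted p under 0.05, and the median was -0.35, or -0.32 without number 1. By number the median was -0.53, -0.52, -0.38 and -0.0287, so numbers 1 and 2 were alike and number 4 was near 0. Mki67, the proliferation marker, was at 1.60, 3.98, 2.91 and 1.28 FPKM at day 60 and 0.948, 1.10, 1.06 and 0.776 FPKM at day 120. Birc5, a protein of chromosome segregation, was at 1.92, 4.21, 2.38 and 1.80 FPKM and then 0.811, 1.48, 1.16 and 0.711 FPKM. Neither overlapped between the days, and number 2 was the highest at day 60. That library also had the highest T and NK cell sum, 202 FPKM, and the highest level of the leukocyte marker Ptprc, 29.2 FPKM, and the part of leukocytes in the cell division genes was not tested. Without number 2 the list's median was -0.27. Top2a, the topoisomerase of dividing cells, was at 2.46, 4.98, 3.10 and 1.75 FPKM and then 0.914, 1.86, 1.14 and 1.13 FPKM. Ccnb1, cyclin B1, was at 1.01 to 2.42 against 0.310 to 0.885 FPKM, and Mcm5, part of the replicative helicase, at 2.05 to 3.46 against 1.35 to 1.61 FPKM. These levels are low, and the pseudocount of 1 understates their ratios. Ccnb1 met the filter through its day 60 values alone, which fixed its lack of overlap. Among the regulators of entry into the cycle, Ccnd2, the main D cyclin of mouse beta cells, went the other way at 40.0, 49.0, 61.3 and 72.5 FPKM against 131, 95.8, 82.5 and 98.3 FPKM, without overlap (log2 difference 0.87, 95% interval 0.35 to 1.40). The list of D cyclins and inhibitors had 2 of 16 higher and 3 lower in all 4 numbers.

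Promoters of cell division genes often carry a cell cycle homology region. The motif TTTGAA was searched on both strands (TTCAAA on the other) in the 250 bases before each RefSeq start site. It was present for 8 of the 24 tested cell division genes with a promoter sequence, 33.3%, and for 18.3% of 27025 genes in all. The stretch before Top2a is shown as an example, with the match in capitals; a match is a description and not a shown binding site.
Top2a promoter, GRCm38.p6 chr11:99024190-99024289, minus strand: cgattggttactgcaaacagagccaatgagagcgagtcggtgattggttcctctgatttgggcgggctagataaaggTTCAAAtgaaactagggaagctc

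**Figure D4:**
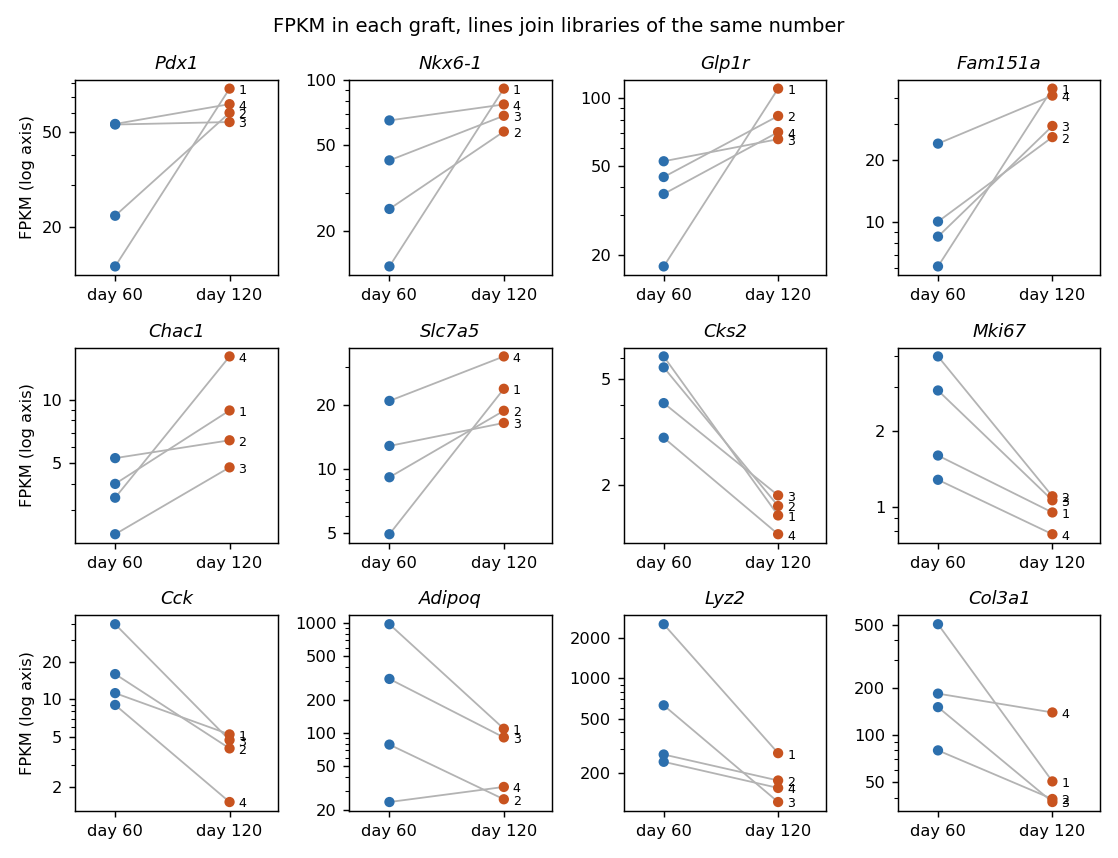
FPKM on log axes in each graft for 12 genes, day 60 on the left and day 120 on the right, with a line joining libraries of the same number and the number beside the day 120 point. Pdx1, Nkx6-1, Glp1r, Fam151a, Chac1 and Slc7a5 have upward lines in every number, and Cks2, Mki67, Cck, Lyz2 and Col3a1 downward ones, while Adipoq goes up in number 4, from 23.7 to 32.5 FPKM.

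Target genes of ATF4, the transcription factor of the amino acid and integrated stress response, lay mostly higher at day 120. Of 36 tested, 15 were higher in all 4 numbers and none was lower in all 4, 7 had an unadjusted p under 0.05, and the median was 0.22, or 0.21 without number 1. Unlike the endocrine lists, the largest median was that of number 4, at 0.39, beside 0.20, 0.30 and 0.0834 in numbers 1, 2 and 3. Chac1, a glutathione-degrading enzyme, was at 3.99, 5.29, 2.30 and 3.43 FPKM at day 60 and 8.91, 6.43, 4.78 and 16.1 FPKM at day 120. Slc7a5, a transporter of large neutral amino acids, was at 4.94, 9.13, 12.8 and 20.8 FPKM and then 23.7, 18.7, 16.4 and 33.6 FPKM. Day 120 exceeded day 60 in every number in both genes, although the groups overlapped. The tRNA synthetase genes Aars and Yars, which charge tRNAs with alanine and tyrosine, were at 12.6 to 19.4 against 18.5 to 29.3 FPKM and 9.97 to 13.0 against 12.4 to 19.1 FPKM. Ppp1r15a, which restarts translation after stress, was at 17.9, 13.5, 15.9 and 26.2 FPKM and then 19.1, 19.5, 21.0 and 23.8 FPKM, lower at day 120 in number 4.

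ATF4 acts at C/EBP-ATF composite elements, for which TGATGCAA is a common form. This motif, searched on both strands (TTGCATCA on the other), was present in the 250 bases before the start site of 7 of the 29 tested ATF4 list genes with a promoter sequence, 24.1%, and of 0.918% of 27025 genes in all. Chac1 and Aars are shown because both are among the list's most different genes between the days; capitals mark the match.
Chac1 promoter, GRCm38.p6 chr2:119351010-119351109, plus strand: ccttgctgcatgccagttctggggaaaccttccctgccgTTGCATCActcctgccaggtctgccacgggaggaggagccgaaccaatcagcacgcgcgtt
Aars promoter, GRCm38.p6 chr8:111033691-111033790, plus strand: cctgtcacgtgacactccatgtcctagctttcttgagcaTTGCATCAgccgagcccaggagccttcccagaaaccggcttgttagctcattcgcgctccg
Of 37 genes of protein folding and the unfolded protein response in the endoplasmic reticulum, 2 were higher and 2 lower in all 4 numbers, with a median of 0.23, or 0.0629 without number 1. Hspa5, the chief chaperone there, was at 414, 365, 904 and 634 FPKM and then 637, 644, 618 and 483 FPKM. For 19 heat shock chaperones the median was -0.0526, or 0.0102 without number 1, with 1 higher and 2 lower in all 4 numbers.

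Sterol genes held some members on 1 side in all 4 numbers, and clock genes about as many as genes at large. In the list of cholesterol synthesis and its SREBP regulators, 8 of 27 were higher and 1 lower in all 4 numbers. The median was 0.11, or 0.17 without number 1 and -0.12 without number 2. By number it was 0.0238, 0.70, -0.12 and 0.0162, so the positive median rested on number 2. Srebf2, the transcription factor, was at 10.5, 12.1, 14.0 and 19.4 FPKM and then 21.3, 23.6, 17.4 and 23.8 FPKM. Scap, the sterol-sensing escort of SREBP, was at 9.08 to 16.8 against 14.9 to 20.4 FPKM. Among 18 clock genes 3 were higher in all 4 numbers, near the share of 17.0% over all genes tested, and none was lower. Their median was 0.39, led by number 3 at 0.85. Bhlhe41, a repressor in the clock, was at 5.57, 9.39, 6.79 and 16.3 FPKM and then 9.45, 17.0, 21.5 and 20.2 FPKM. Per2, a core clock gene, was at 2.34, 9.77, 8.06 and 10.1 FPKM and then 6.56, 13.6, 10.6 and 12.9 FPKM.

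Host tissue genes lay mostly lower at day 120, by amounts that differed with the number. All 38 fibroblast and matrix genes had a negative difference and 20 were lower in all 4 numbers, with a median of -1.21, or -0.66 without number 1. For 36 adipocyte genes the counts were 34 negative and 13 lower in all 4 numbers, with a median of -1.18, or -0.59 without number 1. All 35 macrophage genes had a negative difference and 21 were lower in all 4 numbers, with a median of -1.13, or -0.63 without number 1. The adipocyte genes summed to 19106, 1527, 6254 and 994 FPKM at day 60 and 2133, 924, 2087 and 1046 FPKM at day 120. The sums of the matrix genes were 12031, 1740, 2858 and 2234 FPKM and then 1501, 983, 915 and 2005 FPKM, and those of the macrophage genes 10143, 1206, 2638 and 1651 FPKM and then 1408, 893, 841 and 1268 FPKM. Day 60 number 1 was highest in all 3 sums, and number 4 differed least between the days. The endocrine lists differed most in number 1, where the host sums differed most, and the part of tissue make-up in them was not tested.

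**Figure D5:**
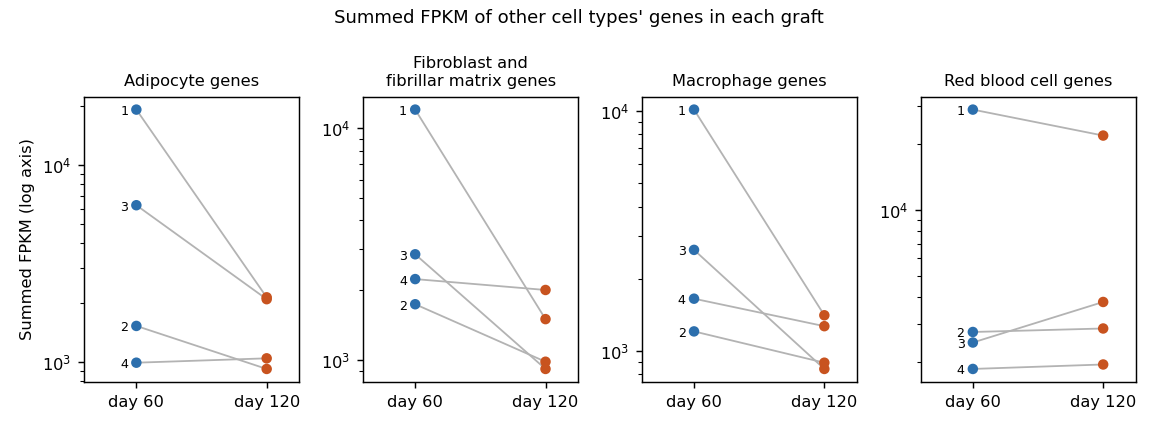
Summed FPKM on log axes of the genes of 4 cell types in each graft, day 60 on the left and day 120 on the right, with a line joining libraries of the same number, which stands beside the day 60 point. Number 1 goes from 19106 to 2133 FPKM in the adipocyte list, while its red blood cell sum is high on both days, at 28895 and 21960 FPKM.

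Among single matrix genes, Col3a1, a fibrillar collagen chain, was at 504, 79.9, 150.2 and 183 FPKM at day 60 and 50.8, 39.3, 37.6 and 139 FPKM at day 120 (log2 difference -1.66, 95% interval -2.98 to -0.35). Col1a1, the main chain of type I collagen, was at 316, 34.0, 65.8 and 202 FPKM and then 29.6, 24.3, 21.1 and 127 FPKM, high in number 4 on both days. Dcn, the proteoglycan decorin, was at 293 to 3284 against 170.5 to 342 FPKM. Eln, elastin, Postn, a matricellular protein, and Mmp23, a metalloproteinase, had no overlap, with log2 differences of -1.02, -1.40 and -1.35. In the whole list of matrix proteases and inhibitors 9 of 26 were lower in all 4 numbers, with a median of -0.83, or -0.40 without number 1. Of 13 basement membrane genes 1 was lower in all 4 numbers, with a median of -0.58, or -0.29 without number 1. Adipoq was at 981, 78.9, 312 and 23.7 FPKM and then 109.9, 25.1, 91.7 and 32.5 FPKM, and Cd36, a fatty acid transporter, at 604, 58.2, 196 and 30.6 FPKM and then 60.6, 41.6, 58.4 and 32.1 FPKM. Acly, which makes acetyl-CoA for lipid synthesis and stands in the adipocyte list, went the other way at 103 to 222 against 241 to 324 FPKM.

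A further 3 genes were picked after their values were seen. Mup1, a major urinary protein, was at 38.1, 6.76, 30.8 and 0.678 FPKM at day 60 and 0.605, 0.226, 1.74 and 0.785 FPKM at day 120, and was among 15 Mup rows, lower at day 120, that made up much of the 45 calls of the blocked fit without number 4 (Mup1 log2 difference -3.60, limma adjusted p = 0.0142). Mup genes are near-identical copies, so fragments could be split among them and the rows are uncertain. Orm1, the acute phase protein orosomucoid, was at 179, 12.6, 57.7 and 3.20 FPKM and then 15.3, 3.00, 12.4 and 5.33 FPKM, and passed in the same fit (limma adjusted p = 0.0414). At day 60 numbers 1 and 3 were highest in both genes, as they were in the summed adipocyte genes, and in number 4 both were higher at day 120 than at day 60. Fabp5, a fatty acid binding protein of fat and macrophages, was at 171, 26.0, 63.3 and 40.3 FPKM and then 13.2, 16.1, 20.2 and 19.2 FPKM, without overlap (log2 difference -1.72, 95% interval -2.83 to -0.61).

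Among macrophage genes, Lyz2, lysozyme, was at 2519, 274, 633 and 242 FPKM at day 60 and 280.4, 176, 122 and 155 FPKM at day 120. Trem2, a lipid receptor of macrophages, was at 63.8, 8.08, 16.5 and 12.5 FPKM and then 4.02, 6.25, 5.71 and 7.01 FPKM. Trem2 did not overlap between the days, and Lyz2 overlapped only through day 120 number 1. Gpnmb, a glycoprotein of lipid-laden macrophages, was at 7.66 to 62.0 against 3.83 to 19.5 FPKM. All 40 genes of the interferon response and antigen presentation had a negative difference and 20 were lower in all 4 numbers, with a median of -0.80, or -0.42 without number 1. Irf8, a transcription factor of myeloid cells, was at 17.0, 8.68, 7.66 and 6.14 FPKM and then 3.99, 2.91, 3.88 and 6.12 FPKM. Psmb8, an immunoproteasome subunit, was at 18.5 to 68.5 against 9.49 to 16.4 FPKM, and H2-Aa, an MHC class II chain, at 143 to 957 against 107 to 170.2 FPKM. The list of NF-kappaB targets and cytokines had a median of -0.51, or -0.28 without number 1, and 0.26 within number 4, with 2 of 24 higher and 1 lower in all 4 numbers.

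The T and NK cell list summed to 126, 202, 33.7 and 37.4 FPKM at day 60 and 24.0, 14.7, 30.6 and 26.2 FPKM at day 120. Its 9 tested members all had a negative difference, 3 were lower in all 4 numbers, and the median by number was -1.65, -2.30, 0.11 and -0.34. Cd4, the co-receptor of helper T cells, was at 4.47, 7.10, 1.34 and 2.45 FPKM and then 0.744, 0.647, 0.958 and 1.77 FPKM. Ccl5, a chemokine of T cells, was at 48.2, 38.4, 8.85 and 7.76 FPKM and then 3.15, 1.74, 11.5 and 5.30 FPKM. Ptprc, the pan-leukocyte marker CD45, was at 18.6, 29.2, 5.30 and 3.63 FPKM and then 8.47, 4.56, 2.14 and 3.20 FPKM. Day 60 number 2, with the lowest macrophage sum of its day, had the highest T and NK cell sum, although Ccl5 was highest in number 1. It was also the highest of its day in the B cell genes Cd22, at 14.6 FPKM against 1.07 to 1.76 FPKM in the other day 60 grafts, and Cd79b, at 24.7 FPKM against 0.672 to 5.73 FPKM. Of 6 B and plasma cell genes tested 1 was higher and 1 lower in all 4 numbers. The granulocyte and mast cell list had 3 of 13 higher and 2 lower, with a median of -0.16, or 0.000202 without number 1. Of its 13 genes 7 had a negative difference and 6 a positive one. S100a9, a calcium-binding protein of neutrophils, was picked after its result was seen. It passed as higher in the blocked fit without number 4 (log2 difference 1.82, limma adjusted p = 0.0331). In the fits of all 8 grafts it did not pass, with or without the block.

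Hba-a1, alpha globin, was at 11332, 1035, 914 and 755 FPKM at day 60 and 8392, 1117, 1429 and 775 FPKM at day 120, high in number 1 on both days. Alas2, the first enzyme of haem synthesis in red cells, was at 133, 8.98, 9.85 and 8.80 FPKM and then 123, 12.6, 14.6 and 11.2 FPKM. The red cell list had a median of 0.0894 over 7 genes, which became 0.99 without day 60 number 1 and -0.65 without day 120 number 1. Of 34 endothelial genes, 7 were higher and 4 lower in all 4 numbers, with a median of -0.18. Pecam1, the endothelial adhesion molecule, was at 66.2, 24.7, 17.6 and 28.9 FPKM and then 43.4, 11.5, 16.2 and 32.6 FPKM. Esm1, a secreted marker of endothelial tip cells, was higher at day 120 in every number, at 6.54, 14.7, 13.5 and 32.4 FPKM and then 39.1, 24.6, 23.6 and 50.5 FPKM. The pericyte and smooth muscle list had a median of -0.35, with 2 of 16 lower in all 4 numbers. Acta2, smooth muscle actin, was at 18.0 to 138 against 7.94 to 44.3 FPKM. The list of angiogenic factors had 3 of 17 higher and 2 lower in all 4 numbers, with a median of -0.22, or -0.0194 without number 1. The list of lymph node and lymphatic genes had 2 of 9 higher and 1 lower, with a median of -0.19, or -0.0246 without number 1. That of Schwann cells and glia had 1 of 15 on each side, with a median of -0.0774, or -0.27 without number 1.

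Genes of protein synthesis lay mostly lower at day 120. Of 66 ribosomal protein genes 41 were lower in all 4 numbers and none was higher in all 4, with a median of -0.55, or -0.32 without number 1 and -0.17 under quantile normalization. The list summed to 77768, 45646, 44170 and 27264 FPKM at day 60 and 32965, 32168, 33279 and 26110 FPKM at day 120. Number 4 was lowest on both days and differed least between them. Rpl34, a protein of the large subunit, was at 1779, 914, 806 and 403 FPKM and then 455, 405, 441 and 377 FPKM. Ribosomal protein genes have many processed copies in the genome, so fragments could be split between them. Of 64 genes of oxidative phosphorylation 22 were lower in all 4 numbers, with a median of -0.34, or -0.10 without number 1 and -0.14 under quantile normalization. For 31 proteasome subunits 7 were lower in all 4 numbers, with a median of -0.20, or -0.0347 without number 1. For 33 lysosomal genes 6 were lower and 2 higher, with a median of -0.16, or -0.0612 without number 1.

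Immediate early genes, which answer to stimulation and handling within minutes, had a median of -0.49, or 0.0817 without number 1. Fos, the best known of them, was at 180.2, 12, 33.1 and 14.8 FPKM at day 60 and 6.39, 11.6, 9.79 and 53.4 FPKM at day 120, lower in numbers 1, 2 and 3 and higher in number 4. Hypoxia and glycolysis genes had 7 of 32 higher and 4 lower in all 4 numbers, with a median of -0.13, or -0.0118 without number 1. The IGF and insulin signalling list had 1 of 18 higher and 2 lower, with a median of -0.0372, or -0.0135 without number 1. Igf2r, which clears IGF2, was at 7.08 to 9.23 against 9.35 to 12.3 FPKM, without overlap. Zinc transporters and metallothioneins had 2 of 12 higher and 1 lower, and the list of beta cell maturation and senescence 4 of 17 higher and 3 lower. The skeletal muscle list had 4 members tested with a median of -0.61, the brown fat list 3 with -0.39, the acinar list 3 with -0.19 and the skin and mammary list 4 with -0.14. Without number 1 these 4 medians were -0.24, -0.0497, -0.41 and -0.22. Genes of the Y chromosome were detected in all 8 grafts. Eif2s3y, a Y-linked translation factor gene, differed little between the days of a number and was at 25.8, 40.2, 37.1 and 29.4 FPKM and then 26.4, 41.3, 40.0 and 30.9 FPKM.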

How the data were processed

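RNA was amplified to cDNA from a low input and sequenced, per the labels' protocols. TopHat2 2.8.0, Cufflinks 2.1.1 and the mm9 build are named in the submitters' processing notes. The authors deposited FPKM per gene symbol, and each column was matched to its library by the sample description. Values were taken as log2(FPKM + 1), and the 13105 rows with at least 1 FPKM in at least 4 of 8 grafts were tested with limma 3.58.1 (R 4.3.3, trended and robust variances, Benjamini-Hochberg over all rows, threshold 0.05). FPKM keep no fragment counts, so no counting error is given. The fit had no block. Same-numbered libraries deviated together from their group means (correlations 0.423, 0.434, 0.195 and 0.217 for numbers 1 to 4), so the numbers were taken to pair the libraries and a blocked fit was run beside it. Nothing says that the libraries of a group came from separate animals, so the spread behind the p-values may be technical. The members, the 46 gene lists (1196 of 1204 entries matched a row) and the naming rule were chosen with earlier results of these data known. The rule names the 10 genes on each side with the best evidence and the same sign in all 4 numbers, leaving out rows of unnamed transcripts and small RNAs, a fixed set of markers, and up to 4 genes of each list in order of p. Sequences come from RefSeq tables (GRCm38.p6). None was found there for Mir1186. Some genes the rule names are not reported here.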

Additional observations from a re-analysis of the deposited data

Results flagged for a closer look

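Some single libraries lay far from the other 3 of their day, with a gap to the nearest library that took up most of the group's range on the log2 scale (Dixon's criterion at 95%). Chance alone gives this in about 1 of 20 groups, and it occurred in 26 of 422 groups, 6.16%. These groups are of 211 genes, those of the rule and those picked after their values were seen, among them Gm9781, Mir1186 and Eif3j. The genes named in the text that met it are given here with their values in FPKM. In day 60 number 1 they were Hba-a1 at 11332, Alas2 at 133, Psmb8 at 68.5 and Mmp23 at 16.8, all high, and Per2 at 2.34 and Mir1186 at 7.31, both low. In day 60 number 2 they were Cd22 at 14.6, high, and Eif3j at 13.0, low, and in number 3 Gm9781 at 2.47, low. In day 60 number 4 they were Pcp4 at 9.48 and Yars at 13.0, both high. In day 120 number 1 they were Alas2 at 123 and Cd79b at 5.93, both high, and Gast at 0.372, low. In day 120 number 3 they were Mir1186 at 1.34 and Gm9781 at 0.00900, both high, and Eif3j at 17.0, low. In day 120 number 4 Hspa5 was low at 483.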

How the results depend on the processing

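The count of 3 changed rows (1 higher and 2 lower) was compared under 31 alternatives. With the replicate number as a block it was 3, with the same rows. Leaving out both libraries of a number gave 2 to 6, and leaving out single libraries gave 0 to 2; without day 120 number 1, 2 or 4 no row passed in limma, where 494, 405 and 534 rows had an unadjusted p under 0.05 and Mir344g no longer met the filter. In blocked fits the count was 8 without number 1 and 45 without number 4, where 5 were higher and 40 lower, among them 15 near-identical Mup genes, whose fragments could be split. It was 1 with the block and quantile normalization, and 1 without small RNA rows (an alternative chosen after seeing the data). Array weights gave 2141 (764 higher, 1377 lower), with a weight of 13.9 on day 60 number 3 and 0.133 on number 1, and that estimate did not converge. Scaling to the FPKM sum without hormone genes moved the median of all genes from 0.0335 to 0.18; under it 5 lists changed sign, with medians of 0.00610 (alpha, delta and PP cell genes), 0.0527 (hypoxia), 0.0296 (D cyclins and inhibitors), 0.11 (heat shock) and 0.11 (IGF and insulin signalling), as did the Y-linked and Xist check list, at 0.10. Quantile normalization brought the alpha, delta and PP cell list to 0.0186 and the heat shock list to 0.0122. None of the 211 genes looked at, those of the rule and those picked later, changed sign with a call under any alternative. Mir1186 and Gm9781 each lost their call under several, and Mir344g where it no longer met the filter. Leaving out any single day 120 graft took Mir344g out of the test, and any single day 60 graft took Gm9781 out. Gm9781 also failed the higher filter of 5 FPKM. The counts with single libraries left out are thus partly set by the filter.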
